A study of Mus musculus with 8 samples.

Results

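The cytosolic ribosomal protein genes encode the proteins of the 40S and 60S subunits of the ribosome. Members were chosen by symbol: Rpl or Rps followed by a number and at most 1 of the letters a, l, x or y, together with Rpsa, Rplp0, Rplp1 and Rplp2. Kinases of the Rps6k family, symbols ending in -ps and the mitochondrial Mrpl and Mrps genes were left out. The RefSeq table held 83 such symbols, 79 of them had a probe on the array, and 77 passed the filter on dim probes, among 13331 genes tested in all. They comprised 46 genes of the large subunit and 31 of the small subunit. Rpl3l and Rpl39l, paralogues of Rpl3 and Rpl39, had probes that were not well above background on any of the 8 arrays, and the other 4 symbols had no matched probe. Rps4l passed the symbol rule, although RefSeq lists it as a transcribed pseudogene.

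RNA of secondary neurospheres, the free-floating clusters of cells that form when dissociated neural stem cell cultures are grown again with growth factors, was hybridised to 8 one-colour Agilent arrays. All cultures came from the hippocampus of adult mice aged 7 to 9 weeks. Sirt1 KO and WT neurospheres were of the strain labelled 129/ICR and were cultured for 6 days. In both of these groups replicate 1 was female and replicate 2 male. Resveratrol and DMSO neurospheres were of WT C57BL/6 male mice, cultured for 5 days and then given resveratrol, at a concentration labelled 10 "mm", or its solvent DMSO for 24 hours. Each group had 2 arrays. Sirt1 encodes an NAD-dependent deacetylase, and resveratrol is a plant polyphenol that is widely used as an activator of it. The series sets Sirt1 KO beside exposure to resveratrol in adult neural stem cells, and these arrays do not measure SIRT1 activity. The labels do not say whether replicates came from separate animals or cultures beyond their sex, so each p-value speaks only for the spread among these arrays, which may be technical. The Sirt1 allele and how many animals were pooled are not given in the sources used here.

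A ribosome needs its proteins in roughly equal numbers, and in mammals their mRNAs share a 5' terminal oligopyrimidine tract, a run of C and T bases at the transcript start through which the mTOR pathway and LARP1 set their translation. Ribosomal protein mRNAs are among the most abundant of growing cells, and in adult neurogenesis protein synthesis is known to be low in quiescent stem cells and higher in activated ones. Beyond the ribosome, free RPL5 and RPL11 form a particle with 5S rRNA that binds MDM2 and so stabilises p53. An array reads the RNA level only, not its translation.

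The sequence around the transcript start is shown for 6 members that the results below turn on or that carry one of the searched motifs close to the start. RefSeq promoter windows, build GRCm38.p6, from 250 bases before to 50 after each start, were matched by symbol to 57 of the 77 genes (68 windows), and the other 20 had no entry. The lines give 60 bases before the start and 20 bases from it on, 5' to 3' on the strand of the gene. Capitals mark CTTTCC, a pyrimidine run, or CGGAAG, the core bound by ETS factors such as GABPA, on the strand shown.
Rpl11, minus strand, chr4:136053374-136053453: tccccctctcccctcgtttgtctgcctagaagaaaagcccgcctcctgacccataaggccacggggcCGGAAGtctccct
Rps13, minus strand, chr7:116334171-116334250: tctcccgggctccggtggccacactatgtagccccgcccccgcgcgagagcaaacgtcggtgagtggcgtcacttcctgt
Rps27, minus strand, chr3:90213629-90213708: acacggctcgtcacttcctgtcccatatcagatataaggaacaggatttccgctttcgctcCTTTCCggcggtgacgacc
Rps27l, plus strand, chr9:66946026-66946105: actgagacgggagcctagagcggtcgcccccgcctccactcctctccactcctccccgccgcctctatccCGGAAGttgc
Rpl18, plus strand, chr7:45718011-45718090: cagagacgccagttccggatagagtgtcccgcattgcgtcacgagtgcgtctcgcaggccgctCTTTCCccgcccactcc
Rpl28, plus strand, chr7:4792905-4792984: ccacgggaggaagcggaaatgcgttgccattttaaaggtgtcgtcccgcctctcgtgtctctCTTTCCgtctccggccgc

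Rps27, Rpl18 and Rpl28 carried CTTTCC at the start, Rpl11 and Rps27l carried CGGAAG there, and the Rps13 stretch held neither. The same stretch at another start of Rps27l, not shown above, also held neither. Over whole windows, CTTTCC on the gene's strand was in 39.7% of the 68 ribosomal protein windows and in 14.1% of all 32851 windows. Within 30 bases on either side of the start, 17.6% of ribosomal protein windows and 2.89% of all windows held it. On either strand CTTTCC was in 34 of the 68 ribosomal protein windows and in 26.6% of all windows. CGGAAG or its reverse complement CTTCCG was in 63.2% of ribosomal protein windows and 16.9% of all windows. The motifs can overlap by at most 1 end base. These are matches of letters and do not show binding or translation.

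The levels below are log2 processed signals minus the 75th percentile of the array, so a level of 0 equals the signal that 75% of probes did not exceed. That percentile was 716 to 871 in the replicate 1 arrays and 249 to 377 in the replicate 2 arrays. No spot was saturated. All 9 neural stem and progenitor markers, Nes, Sox2 and Fabp7 among them, were well above background on all 8 arrays, with medians of 3.06 to 4.06 on the log2 scale. Of the markers of other cells, 5 of 6 neuronal, 4 of 5 oligodendrocyte, 1 of 5 microglial, 1 of 4 endothelial and 0 of 3 blood genes passed the filter. Of those that passed, all 5 neuronal, 3 of 4 oligodendrocyte and the microglial gene were also well above background on all 8 arrays. The endothelial gene was not. The list medians of these other cells lay at or below -0.44 on every array, and their part in the results was not tested. Sirt1 levels on its brighter probe were 0.42 and -0.07 on the Sirt1 KO arrays and 0.16 and 0.17 on the WT arrays. Its other kept probe gave -1.01 and -1.92 on the Sirt1 KO arrays and -1.34 and -0.99 on the WT arrays. The levels overlap on each probe. Whether either probe lies in the deleted part is not given in the sources used here, so the groups are called by their labels. In bulk RNA, fewer cells of a type and less RNA per cell cannot be told apart.

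The ribosomal protein genes were among the brightest on every array. The family median was 7.08 and 8.34 on the Sirt1 KO arrays, 7.13 and 8.39 on the WT arrays, 7.18 and 8.37 on the resveratrol arrays, and 7.15 and 8.20 on the DMSO arrays (log2 level, replicates 1 and 2). The 2 arrays of a group thus lay apart by more than any of the 4 groups did at a given replicate number. Rps4l was the lowest member on 6 arrays, all but resveratrol 2 and DMSO 2, and Rps18, a protein of the head of the small subunit, was the highest member on all 8 arrays. Probes differ in brightness, so the order of genes on an array is not an order of transcript levels.

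**Figure D1:**
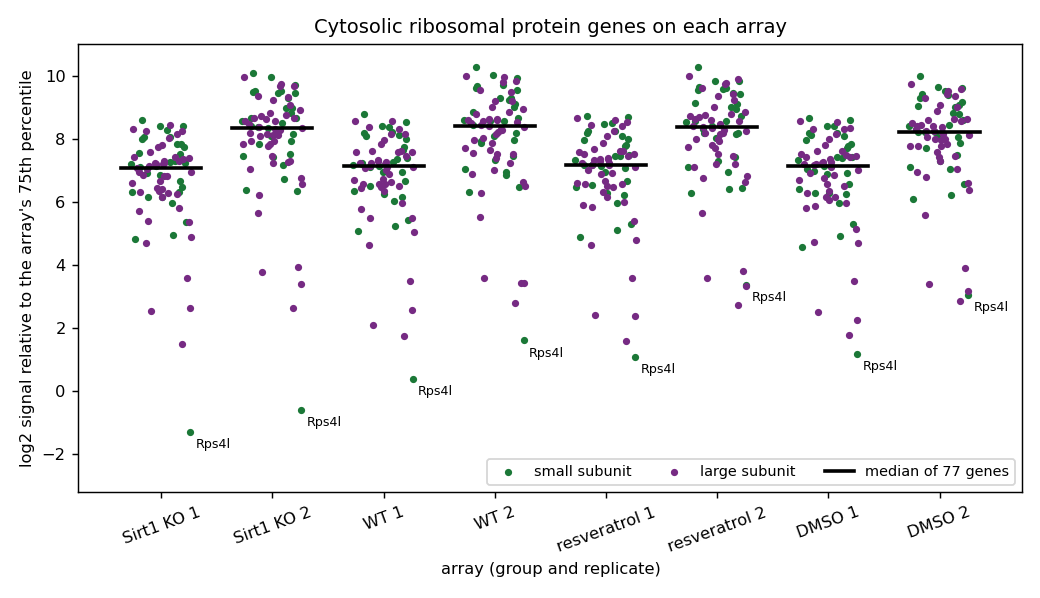
Each point is 1 of 77 ribosomal protein genes on 1 array, as its log2 signal relative to the 75th percentile of the array, with arrays by group and replicate on the horizontal axis. The bar is the family median, which lies between 7.08 and 7.18 on the replicate 1 arrays and between 8.20 and 8.39 on the replicate 2 arrays; Rps4l is named, and heights of different genes are not comparable because probes differ in brightness.

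Between the replicates of a group, the whole family moved together on this scale. The median difference, replicate 1 minus replicate 2, was -1.31 in Sirt1 KO, -1.25 in WT, -1.20 in resveratrol and -1.11 in DMSO neurospheres on the log2 scale, against -0.26, -0.26, -0.24 and -0.15 over all genes. Replicate 1 was at least 2-fold below replicate 2 for 65 of 77 members in Sirt1 KO, 64 in WT, 64 in resveratrol and 58 in DMSO neurospheres. Over all genes the same held for 17.6% in Sirt1 KO, 16.3% in WT, 14.5% in resveratrol and 8.48% in DMSO neurospheres. Other genes in the brightest 5% of the table had medians of -1.01, -0.94, -1.02 and -0.87 in the same order of groups. Rpl4, which lines the nascent chain exit tunnel, differed least, by -0.33 in Sirt1 KO, 0.05 in WT, -0.20 in resveratrol and -0.41 in DMSO neurospheres (log2 difference). Sex differed between the replicates of Sirt1 KO and WT and not between those of resveratrol and DMSO, and its part in the shift was not tested.

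The shift depended on the scaling of the arrays. With quantile normalization the family medians were -0.10 in Sirt1 KO, -0.05 in WT, -0.10 in resveratrol and -0.11 in DMSO neurospheres. Without any centring they were 0.15, 0.47, 0.12 and -0.13, while the medians over all genes were 1.20, 1.46, 1.08 and 0.84. Uncentred signals of the family thus differed less between replicates than those of the typical gene did. Centring subtracts the log2 75th percentile, which was lower on the replicate 2 arrays. The shift on the centred scale therefore contains that difference by construction. Why the percentiles differed was not tested.

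**Figure D2:**
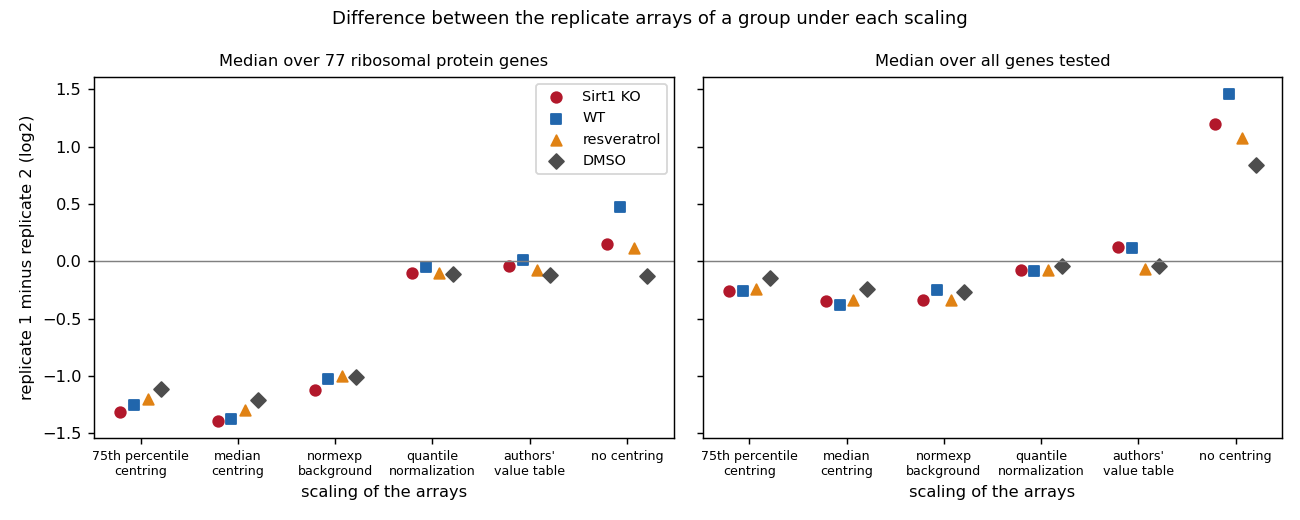
Median difference between the replicate arrays of a group, replicate 1 minus replicate 2 on the log2 scale, for 77 ribosomal protein genes at left and all genes tested at right, under 6 scalings on the horizontal axis. The ribosomal protein medians lie between -1.31 and -1.11 with 75th percentile centring, between -0.11 and -0.05 with quantile normalization, and between -0.13 and 0.47 with no centring.

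Genes of related function moved by different amounts between replicates. Nuclear-encoded mitochondrial ribosomal proteins, a separate set that serves the mitochondrial ribosome, had medians of -1.07 in Sirt1 KO, -1.02 in WT, -1.09 in resveratrol and -0.98 in DMSO neurospheres (replicate 1 minus replicate 2, log2 difference). Translation factors and other mRNAs known for an oligopyrimidine tract, such as Eef1a1 and Tpt1, had medians of -1.01, -1.06, -0.95 and -0.97 in that order. Ribosome biogenesis genes, which make and process rRNA in the nucleolus, had -0.40, -0.29, -0.49 and -0.68. Growth control genes had 0.32, 0.37, 0.075 and 0.026. These list medians are descriptions, with no test between lists.

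Loss of Sirt1 was addressed by the Sirt1 KO and WT arrays. The family was nearly level between them: the median member differed by -0.093 on the log2 scale, with -0.11 in the replicate 1 pair and -0.029 in the replicate 2 pair, against -0.032 over all genes. Quantile normalization gave 0.0049, and normexp background correction gave 0.25 with 75 of 77 members higher in Sirt1 KO. The direction and size of the family difference thus depended on the scaling. No gene of the whole table passed limma's test at an adjusted p of 0.05 (0 of 13331, or 0%). Hence none of the 77 members did, while 158 genes had an unadjusted p under 0.05. The spread in this test, here and in the comparisons below, included the shift between replicates (median SE 0.85 over the members). Differences of the size seen for most members could therefore not pass it. Of the members, 73 lay within 0.25 of 0 with 75th percentile centring (log2 difference). On this scale, lower in both pairs were 45 members, against 32.6% of all genes, and higher in both pairs were 5, against 23.5% of all genes. Other genes of the brightest 5% had a median of -0.088, close to that of the family.

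The largest difference was that of Rps4l. Its log2 levels were -1.29 and -0.58 in Sirt1 KO neurospheres, against 0.40 and 1.61 in WT neurospheres. Both Sirt1 KO arrays lay below both WT arrays, and its 1 probe was well above background on all 8 arrays. Rps4l was 3.84-fold lower in Sirt1 KO neurospheres, a log2 difference of -1.94 (SE 0.91, n = 2 arrays each, limma adjusted p = 1.0), with -1.68 and -2.20 in the 2 pairs. Quantile normalization gave -1.95. Rps4l passed limma's test only with replicate number as a block, where 0.428% of all genes did. No label says that the numbers pair samples. Rps4x, the X-linked gene of the working eS4 protein, had -0.12, with -0.08 and -0.17 in the pairs. Groups that did not overlap were found for 2 members, Rps4l and Rpl4, against 15% of all genes.

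Rpl11, a part of the 5S particle, was highest among the positive differences. Its log2 levels were 6.94 and 8.19 in Sirt1 KO neurospheres, against 6.42 and 7.55 in WT neurospheres. The groups overlap because of the replicate shift, although Sirt1 KO was the higher of each pair. The log2 difference was 0.58 (SE 0.79, limma adjusted p = 1.0), with 0.52 and 0.64 in the pairs and 0.62 under quantile normalization. Its partner Rpl5 had levels of 7.18 and 7.91 in Sirt1 KO and 7.21 and 7.52 in WT neurospheres, a difference of 0.19 with -0.02 and 0.40 in the pairs. Rpl23, which likewise binds MDM2, had -0.03.

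Rpl4 had log2 levels of 3.60 and 3.93 in Sirt1 KO and 3.50 and 3.44 in WT neurospheres, and its groups do not overlap. Its log2 difference was 0.29 (SE 0.27, limma adjusted p = 1.0). Rpl21 had a higher log2 difference than Rpl4 (0.32), and Rpl5 and Rps9, a protein of the small subunit body (0.18), were the other high members. At the other end, after Rps4l, stood Rps15 (-0.23), Rpl34 (-0.22), Rpl14 (-0.22) and Rpl38 (-0.21). Loss of Rpl38 in mice is known to alter translation of Hox mRNAs. Among these genes Rpl11, Rpl21, Rpl4, Rpl5, Rps9, Rps4l and Rpl14 kept their sign under quantile normalization, median centring, normexp and the authors' table, and Rps15, Rpl34 and Rpl38 did not.

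The 2 replicate pairs sat differently on the 3 slides of the arrays. Replicate 2 of both groups shared slide 3, the only slide of the second scan day, and within it the family median was -0.029, Rps4l had -2.20 and Rpl11 had 0.64 (log2 difference). Replicate 1 lay on slide 2 for Sirt1 KO and on slide 1 for WT. With slide as a block the family median became -0.56, Rps4l -2.83 and Rpl11 0.17. The slide 2 term of that fit rests largely on resveratrol and DMSO replicates, which differ in family level themselves.

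Exposure to resveratrol was addressed by the resveratrol and DMSO arrays, both pairs of which lie within a slide. The median member differed by 0.12 on the log2 scale, with 0.072 in the replicate 1 pair and 0.16 in the replicate 2 pair, against 0.010 over all genes. Quantile normalization gave -0.017, so here too the direction depended on the scaling. No gene passed limma's test (0 of 13331, 0%), and 203 had an unadjusted p under 0.05. On this scale, higher in both pairs were 61 of 77 members, against 35.5% of all genes, and lower in both pairs were 6, against 33% of all genes. Other genes of the brightest 5% had a median of 0.092. No member had groups without overlap, against 19.1% of all genes, and 71 members lay within 0.25 of 0.

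Rpl39, a small protein at the mouth of the exit tunnel, was the highest. Its log2 levels were 6.48 and 8.27 in resveratrol neurospheres, against 6.17 and 7.83 in DMSO neurospheres. The groups overlap, and resveratrol was higher in each pair. The log2 difference was 0.37 (SE 1.07, limma adjusted p = 1.0) with 0.31 and 0.44 in the pairs, and 0.21 under quantile normalization. Rps27l, a p53 target and a paralogue of Rps27, had 6.54 and 8.17 in resveratrol neurospheres, against 6.28 and 7.71 in DMSO neurospheres, a log2 difference of 0.36 with 0.25 and 0.46 in the pairs. Its parent Rps27 had 0.12. The paralogues thus differed in size but not in sign on this scale, and the difference between them was not tested.

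Rpl30 (0.29), Rpl35a (0.27) and Rplp1, an acidic protein of the stalk that recruits elongation factors (0.26), followed on the log2 scale. The other stalk proteins, Rplp0 and Rplp2, had 0.22 and 0.18. The lowest members were Rpl14 (-0.15), Rps6, the target of the S6 kinases (-0.06), Rpl18 (-0.06), Rpsa, the laminin receptor precursor (-0.06) and Rpl3 (-0.05). Rps4l had log2 levels of 1.10 and 3.38 in resveratrol neurospheres, against 1.17 and 3.06 in DMSO neurospheres, a difference of 0.12. Rpl11 had 7.51 and 8.63 in resveratrol neurospheres and 7.43 and 8.41 in DMSO neurospheres, a difference of 0.15 that was -0.01 under quantile normalization. The members that stood apart with Sirt1 genotype therefore had small differences here. No gene of the table passed limma's test of the difference between the 2 differences (0 of 13331, with 126 at an unadjusted p under 0.05). With replicate number as a block Rps4l passed that test, where 22 of 13331 genes were called with a positive and 27 with a negative value. The labels do not say that replicate numbers pair samples.

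**Figure D3:**
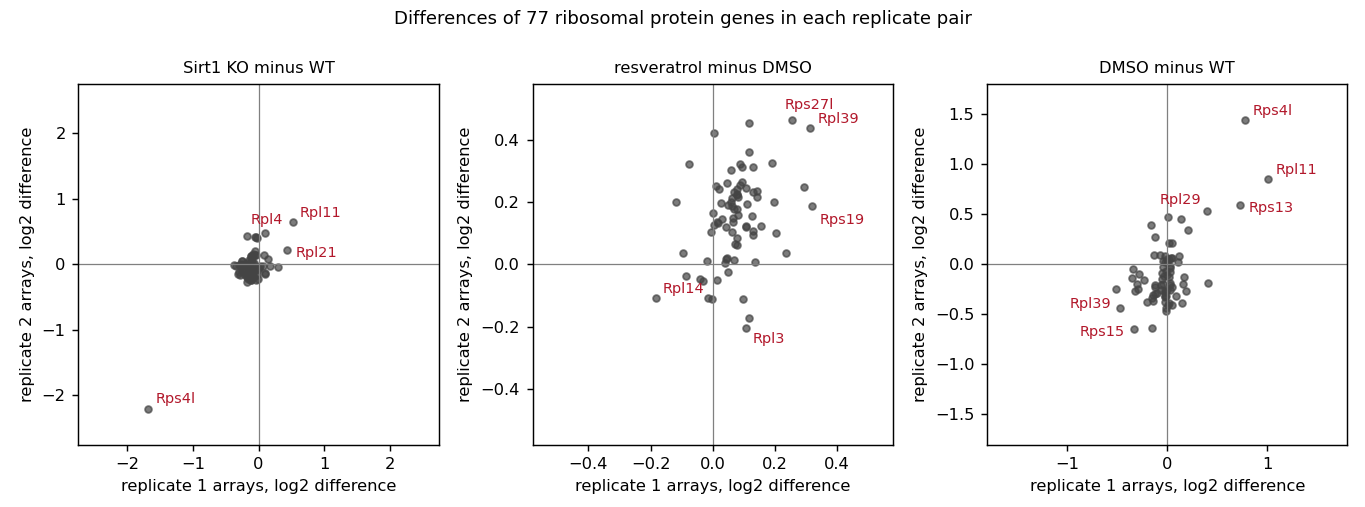
Log2 differences of 77 ribosomal protein genes in the replicate 1 arrays on the horizontal axis and the replicate 2 arrays on the vertical axis, with a panel and a scale each for Sirt1 KO minus WT, for resveratrol minus DMSO and for DMSO minus WT. Rps4l lies apart at -1.68 and -2.20 for Sirt1 KO minus WT, and Rps4l, Rpl11, Rps13 and Rpl29 lie at upper right in the last panel.

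DMSO and WT neurospheres were both of wild-type genotype, but strain, solvent, sex balance and slide differ between them and cannot be told apart. The family median was -0.090 on the log2 scale, with -0.017 in the replicate 1 pair, which shares slide 1, and -0.18 in the replicate 2 pair, which does not share a slide. It was 0.021 under quantile normalization, 0.26 with normexp and 0.33 with slide as a block. In limma's test 10 genes of the table passed (0.075%), none of them a member. On this scale, lower in both pairs were 37 members, against 32.6% of all genes, and higher in both were 14, against 27.8% of all genes. Only Rpl4 had groups without overlap, against 26.2% of all genes.

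A few members had large and repeated differences nonetheless, of which those of Rps4l, Rpl11 and Rps13 rest on a single probe each. Rps4l, with 1.17 and 3.06 in DMSO and 0.40 and 1.61 in WT neurospheres, differed by 1.11 on the log2 scale (SE 0.91, limma adjusted p = 1.0), or 2.16-fold, with 0.78 and 1.44 in the pairs. Rpl11 had 7.43 and 8.41 in DMSO neurospheres, against 6.42 and 7.55 in WT neurospheres. Each DMSO array was above the WT array of its number, and the groups overlap. Its log2 difference was 0.93 (SE 0.79, limma adjusted p = 1.0), or 1.91-fold, with 1.01 within slide 1, and 0.99 under quantile normalization (limma adjusted p = 0.0601).

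Rps13, a small subunit protein, had log2 levels of 7.96 and 9.04 in DMSO and 7.24 and 8.44 in WT neurospheres, a difference of 0.66 with 0.72 and 0.59 in the pairs. Rpl29, a large subunit protein also known to bind heparin, had 5.88 and 6.80 in DMSO and 5.49 and 6.27 in WT neurospheres, a difference of 0.46 with 0.39 and 0.53 in the pairs. Its 3 other kept probes gave 0.38, 0.79 and 0.16. Neither gene passed limma's test (adjusted p = 1.0 for both). With replicate number as a block, Rpl11, Rps13 and Rpl29 passed in DMSO minus WT, where 5.76% of all genes did. Rpl5 had a log2 difference of 0.30.

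Relative to the family median of the same array, the 4 C57BL/6 arrays did not overlap the 4 129/ICR arrays for 6 of 77 members. These were Rpl11, Rpl13a, Rpl29, Rps13, Rps26 and Rps4l, and the share over all genes was 4.18%. Subtracting the family median takes the shared replicate shift out of the members. For the typical other gene, which moved less between replicates, it widens the replicate difference. Non-overlap is therefore easier for members than for other genes, and the count cannot be read against that share. The levels of 4 of the 6 members are given as a description. Rpl11, Rps13 and Rpl29 were named for their DMSO minus WT differences, and the named genes are therefore apart by choice. Rpl11 was at -0.14 and -0.15 in Sirt1 KO, -0.71 and -0.84 in WT, 0.34 and 0.26 in resveratrol and 0.28 and 0.21 in DMSO neurospheres (log2 level relative to the family median). The replicates of each group lay close together, and only resveratrol and DMSO overlapped. Rps13 was at 0.45 and 0.06 in Sirt1 KO, 0.11 and 0.05 in WT, 0.78 and 0.77 in resveratrol and 0.81 and 0.83 in DMSO neurospheres. The resveratrol and DMSO levels of Rps13 were the higher ones. Rpl29 was at -1.68 and -2.11 in Sirt1 KO, -1.65 and -2.13 in WT, -1.33 and -1.63 in resveratrol and -1.27 and -1.41 in DMSO neurospheres, and its closest C57BL/6 and 129/ICR arrays were resveratrol 2 and WT 1. Rps4l was at -8.37 and -8.93 in Sirt1 KO, -6.73 and -6.78 in WT, -6.08 and -4.99 in resveratrol and -5.97 and -5.15 in DMSO neurospheres, so its Sirt1 KO arrays were the lowest and its C57BL/6 arrays the highest.

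**Figure D4:**
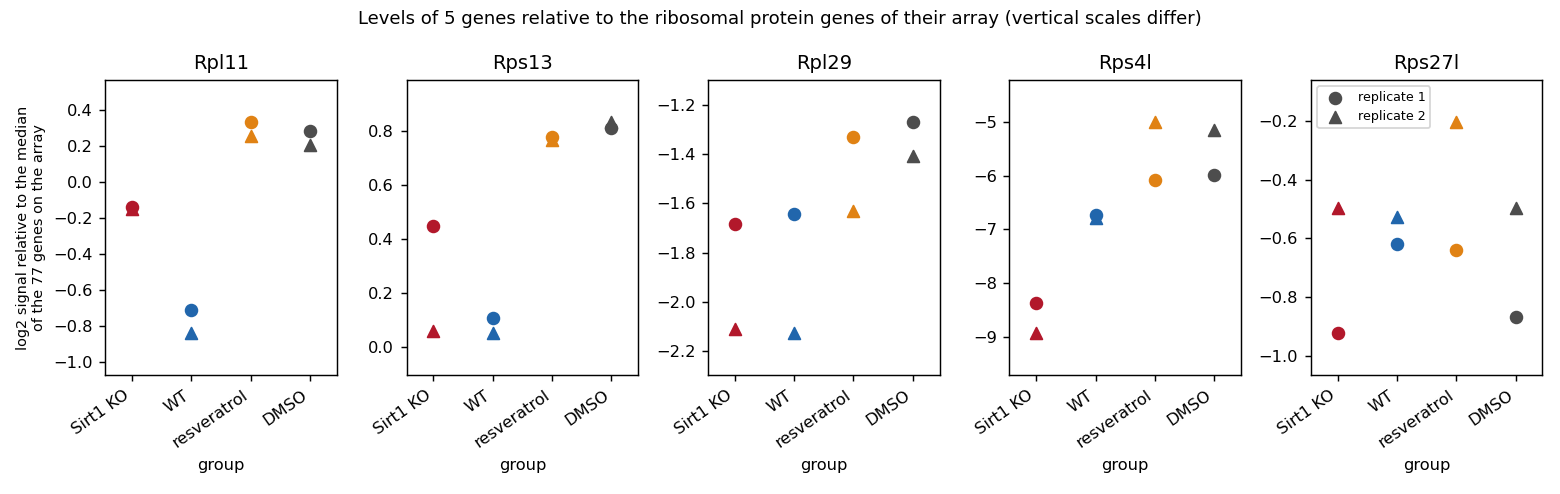
Log2 signal of 5 genes relative to the median of the 77 ribosomal protein genes of the same array, by group, with a circle for replicate 1 and a triangle for replicate 2 and a vertical scale of its own per gene. Rpl11 lies near -0.15 in Sirt1 KO, below -0.7 in WT and above 0.2 in resveratrol and DMSO neurospheres; Rps4l is lowest in Sirt1 KO neurospheres.

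The lowest DMSO minus WT log2 differences were those of Rps15 (-0.49), Rpl39 (-0.45), Rps4x (-0.39), Rps19 (-0.38) and Rpl6 (-0.30). Rps15 had log2 levels of 4.92 and 6.22 in DMSO neurospheres, against 5.25 and 6.86 in WT neurospheres, and its groups overlap. All 4 X-linked members, Rps4x, Rpl10, Rpl36a and Rpl39, were lower in both pairs in DMSO than in WT neurospheres. So were 37 of 77 members and 32.6% of all genes. The X-linked median was -0.34, with -0.24 in the replicate 1 pair and -0.41 in the replicate 2 pair. Sex differs only in the replicate 1 pair, and its part was not tested. That median was -0.24 under quantile normalization, -0.21 with the authors' table and 0.072 with normexp, where the family median was 0.26. The same 4 genes were also lower in both pairs in Sirt1 KO than in WT (median -0.15, but 0.17 with normexp), as were 45 of 77 members. They were higher in both pairs in resveratrol than in DMSO neurospheres (median 0.21, and 0.050 under quantile normalization), as were 61 of 77 members.

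Of the members mutated in human Diamond-Blackfan anaemia, an inherited failure of red cell production, 18 were tested. Their median log2 differences were -0.091 between Sirt1 KO and WT, 0.12 between resveratrol and DMSO and -0.11 between DMSO and WT, close to those of the family, and none passed limma's test. These signs depended on the scaling as the family's did: the medians were 0.0016, -0.013 and 0.0021 under quantile normalization and 0.27, 0.087 and 0.26 with normexp. Rps19, the gene most often mutated in that disease, had -0.10, 0.25 and -0.38 in the same comparisons. Rps27a, which encodes a ubiquitin fusion protein, had -0.10, 0.20 and -0.20. The large subunit had medians of -0.089, 0.12 and -0.094, and the small subunit -0.10, 0.12 and -0.090.

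Different probes of a gene did not always give the same difference. Several kept probes were available for 27 members. In DMSO minus WT, 4 of them had probes of opposite sign more than 0.5 apart on the log2 scale: Rpl31 (-0.27 to 0.63), Rpl7a (-0.62 to 0.17), Rps15a (-0.50 to 0.06) and Rps25 (-0.02 to 1.09). Rps15a was also discordant in Sirt1 KO minus WT (-0.49 to 0.11), and no member was in resveratrol minus DMSO. Ribosomal protein genes have many processed pseudogenes, so a probe may also read near-identical copies, which was not tested.

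The lists of genes around the ribosome had small median differences as well, while some single genes in them differed by more. None of the lists held a gene past limma's test. Ribosome biogenesis genes had median log2 differences of -0.090 between Sirt1 KO and WT, -0.15 between resveratrol and DMSO and -0.099 between DMSO and WT (39 genes). In resveratrol minus DMSO, 22 of the 39 were lower in both pairs and 5 higher (33% and 35.5% of all genes), and the median was -0.023 in the replicate 1 pair and -0.26 in the replicate 2 pair. The lowest genes were Gar1 of the H/ACA particle at -0.48, Rrs1 at -0.42, Rrp12 at -0.40 and Gnl3, the nucleolar stem cell protein nucleostemin, at -0.37, and the highest were Rrn3 at 0.15 and Nhp2 at 0.11. The median over both pairs was -0.16 under quantile normalization and -0.17 with normexp, while normexp turned the other 2 biogenesis medians to 0.14 and 0.097. Translation factors and the other tract-bearing mRNAs had medians of -0.014, 0.090 and -0.066 (15 genes), with Eef1a1, the elongation factor that delivers tRNAs, at 0.39 for resveratrol minus DMSO and -0.48 for DMSO minus WT. Those medians were 0.049, -0.017 and -0.021 under quantile normalization and 0.28, 0.053 and 0.28 with normexp, so each sign depended on the scaling. Mitochondrial ribosomal proteins had -0.081, 0.054 and -0.015 (78 genes, 77 of them in the first), and with normexp 0.18, 0.019 and 0.28. Among them Mrpl10 had -3.92 between Sirt1 KO and WT, with -0.41 and -7.44 in the pairs. Its level of -5.13 on the Sirt1 KO 2 array was far below its levels on the other arrays. Growth control genes had -0.11, -0.086 and -0.012 (15 genes, 14 in the first), and with normexp 0.017, -0.079 and -0.0047, with Mycn at -0.99 for DMSO minus WT. Near relatives left out by the symbol rule, Fau, Rack1, Rps3a1, Rpl22l1, Rpl36al and Rpl7l1, lay between -0.40 and 0.16 in all 3 comparisons.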

How the data were processed

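Secondary neurosphere RNA was measured on 8 one-colour arrays. Spot intensity was taken from the scanner output the authors deposited, made per the file headers with Feature Extraction 10.7.3.1 (10.7 per the submitters' processing notes), which corrects background within an array and does not normalize between arrays. The authors also deposited a table of log2 values. Its medians were 6.01 for the arrays of slide 3 and 6.28 for the others, so the sets may have been normalized separately. Its method is not given in the sources used here. It correlated at 0.993 to 0.999 with the log2 intensity of each array over probes and served as an alternative. Each array had 45018 spots, 1639 of them controls, which were left out. Spots of a probe were averaged to 41174 probes, and the 75th percentile of each array was subtracted from log2 intensity. A probe was kept (26360 were) if some group had both of its arrays well above background. Symbols came from RefSeq by accession, and 14256 probes had none. The brightest kept probe stood for its gene (5005 genes had several). Some genes lack a value on an array, so the share over all genes is of 13288 to 13331. limma 3.58.1 in R 4.3.3 fitted 4 group means over 8 arrays with an intensity trend, two-sided, with Benjamini-Hochberg adjustment over 13331 genes at 0.05. The fit was tested on simulated data that had no replicate shift, which does not show its power on these arrays. Precision is limited by 2 arrays a group. Alternatives were quantile normalization, median centring, normexp (offset 50, on median spot signals because the files hold no mean signal column), the value table, other probe filters and probe rules, no trend, replicate and slide blocks, leaving out each array and a wider member rule; centring on the members' median, no centring and the count of members whose strains do not overlap were chosen after seeing the data. Slides are from the headers. The headers name an older build than GRCm38.p6, whose promoter windows were matched by symbol. Genes named with values are, in each comparison, the 5 highest and 5 lowest members, paralogues with their parents, the stalk, the 5S particle, Rpl23, Rps6, Rps19, Rpsa, Rps27a, X-linked members and members with discordant probes; Rpl4, Rps13 and Rpl29 within other comparisons, the genes named from other lists, and Rps18 and the promoters shown were chosen after their values were seen. Members and lists were chosen with earlier results of these data known. Some items are not reported here.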

Additional observations from a re-analysis of the deposited data

How the results depend on the processing

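No member passed limma's test in any comparison under any scaling, filter or probe rule tried, under the slide block, or with any array left out. The replicate block gave 57 calls over all genes (0.428%) for Sirt1 KO minus WT with 1 member, Rps4l (adjusted p = 0.00777), 73 (0.548%) for resveratrol minus DMSO with 0 members, 768 (5.76%) for DMSO minus WT with 3 members, Rpl11 (adjusted p = 0.00316), Rps13 (0.0157) and Rpl29 (0.0274), and 49 for the difference of differences with 1 member, Rps4l (adjusted p = 0.016). No label says that replicate numbers pair samples. Same-numbered Sirt1 KO and WT arrays share a sex, and same-numbered resveratrol and DMSO arrays share a slide. Deviations of same-numbered arrays correlated over genes at 0.737 for Sirt1 KO with WT, 0.834 for resveratrol with DMSO and 0.596 for DMSO with WT. The 10 calls of DMSO minus WT became 4 with normexp, 4 with probes well above background on all arrays and 145 with the slide block. Without 1 array, calls were 0 to 5 for Sirt1 KO minus WT, 0 to 4 for DMSO minus WT and 0 to 3 for the difference of differences.

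The family median for Sirt1 KO minus WT was 0.0049 with quantile normalization, 0.0027 with the authors' table, 0.25 with normexp, -0.56 with the slide block and -0.74 to 0.61 without 1 array. For resveratrol minus DMSO it was -0.017 with quantile normalization, -0.019 with the authors' table, 0.021 with members' centring and -0.50 to 0.72 without 1 array. For DMSO minus WT it was 0.26 with normexp, 0.034 with the authors' table, 0.33 with the slide block and -0.73 to 0.53 without 1 array. Leaving out any 1 of the 4 arrays compared breaks the balance of replicate numbers, which moves these medians; the cause of the other changes was not tested. The replicate difference, -1.22 as the mean of the 4 group medians, was -0.091 with quantile normalization, -1.32 with median centring, -1.04 with normexp, -0.056 with the authors' table and 0.15 with no centring.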
